A study of Mus musculus with 16 samples.

Results

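The genes described here encode the receptors through which CD4 T cells sense interleukin 12 (IL-12), IL-18, IL-27 and interferon gamma. They were chosen as a list: the IL-12 receptor chains Il12rb1 and Il12rb2, the IL-18 receptor chains Il18r1 and Il18rap, the interferon gamma receptor chains Ifngr1 and Ifngr2, the IL-27 receptor chain Il27ra, and Stat4, the transcription factor that relays the IL-12 signal. All 8 were found among the 23420 genes of the RNA files and among the 22269 gene intervals of the ChIP files. The cells were mouse naive CD4 T cells, sorted by flow cytometry and activated in culture with plate-bound anti-CD3 (5 ug/ml) and soluble anti-CD28 (1 ug/ml). Cells without Ezh2 came from Ezh2 fl/fl.CD4Cre mice (labelled Ezh2-/- and Ezh2KO, and called Ezh2KO below), in which the CD4 promoter drives Cre already in the thymus. Control cells came from Ezh2 fl/fl mice (labelled wild type, and called Ezh2fl/fl below). Ezh2 is the Polycomb methyltransferase that places H3K27me3, the trimethyl mark on histone H3 found at silenced genes.

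RNA was sequenced from 3 iTreg Ezh2KO, 3 iTreg Ezh2fl/fl, 3 Th0 Ezh2KO and 3 Th0 Ezh2fl/fl libraries. The iTreg cultures received recombinant human IL-2 (200 U/ml) and TGF-beta1 (5 ng/ml), and the Th0 cultures received IL-2 alone (50 U). H3K27me3 ChIP was sequenced from 2 Ezh2KO and 2 Ezh2fl/fl libraries of Th0 cells. No cytokine of the IL-12, IL-18, IL-27 or interferon gamma pathways was among the listed additions to either culture. Per-library values below run in the order of the library numbers: Ezh2KO.150, then Ezh2KO.153, then Ezh2KO.165 for iTreg Ezh2KO; 154, 155 and 177 for iTreg Ezh2fl/fl; Ezh2KO.165, then Ezh2KO.174, then Ezh2KO.175 for Th0 Ezh2KO; and 173, 176 and 177 for Th0 Ezh2fl/fl. Titles place iTreg harvest on day 5 and Th0 harvest on day 4, whereas the protocol gives day 4 for both, so day and culture cannot be told apart.

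The IL-12 receptor needs both of its chains: Il12rb1 binds the shared p40 part of IL-12 and IL-23, and Il12rb2 confers the IL-12 response by recruiting Stat4, which drives T helper 1 differentiation and Ifng. The IL-18 receptor pairs the binding chain Il18r1 with the accessory chain Il18rap and, together with IL-12, promotes interferon gamma secretion. Interferon gamma then acts through the binding chain Ifngr1 and the signalling chain Ifngr2, whose level is known to limit the response of T cells, and IL-27 acts through Il27ra paired with Il6st.

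The start regions of the members the results turn on are shown with the features that a search of them found. RefSeq (GRCm38.p6) held the 250 bases before the start for 6 of the 8 members, the exceptions being Il12rb1 and Il27ra. Il12rb2 was the member whose RNA differed most between the genotypes in iTreg. Its window (chr6:67376189-67376438, minus strand) is shown with capitals marking the matches to 2 motifs, both searched on both strands, and the motifs do not overlap each other in this window. TTCNNNGAA is the core bound by STAT factors and TCACAC is a core bound by T-box factors such as those encoded by Tbx21 and Eomes.
Il12rb2: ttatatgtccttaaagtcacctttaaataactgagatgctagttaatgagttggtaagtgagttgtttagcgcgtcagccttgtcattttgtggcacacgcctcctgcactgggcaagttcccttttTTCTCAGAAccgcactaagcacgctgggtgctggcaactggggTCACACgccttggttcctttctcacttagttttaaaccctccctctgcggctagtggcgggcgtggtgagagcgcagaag
The STAT core began 123 bases and the T-box core 80 bases before the start, given as -123 and -80. Neither motif was found in the windows of the other 5 members with a sequence. Of 32851 RefSeq windows of this length, 7.02% held TTCNNNGAA and 12.3% held TCACAC, so both matches are descriptions and no binding was measured. The windows of Il18r1 (chr1:40465302-40465551, plus strand) and Ifngr2 (chr16:91546809-91547058, plus strand), the members whose RNA was lower in Ezh2KO iTreg cells, are shown with CpG dinucleotides in capitals.
Il18r1: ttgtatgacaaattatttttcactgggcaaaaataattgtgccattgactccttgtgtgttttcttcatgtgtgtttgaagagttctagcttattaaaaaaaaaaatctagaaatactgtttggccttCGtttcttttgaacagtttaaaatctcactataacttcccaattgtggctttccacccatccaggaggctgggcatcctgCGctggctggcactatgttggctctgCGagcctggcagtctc
Ifngr2: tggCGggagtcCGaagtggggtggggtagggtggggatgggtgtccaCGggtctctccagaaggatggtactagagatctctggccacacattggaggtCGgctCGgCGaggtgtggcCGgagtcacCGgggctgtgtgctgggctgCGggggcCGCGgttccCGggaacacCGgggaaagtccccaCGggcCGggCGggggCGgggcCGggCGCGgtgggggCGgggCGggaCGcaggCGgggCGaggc
They held 3 CpG in Il18r1 and 25 in Ifngr2. Il12rb2 held 10, Ifngr1 11, Il18rap 4 and Stat4 1, against a median of 6 over all windows.

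Some facts of the whole series bear on the values. RNA libraries held 21910114 to 28443427 counted reads and ChIP libraries 11124172 to 15103496. A chi-square test of counts over genes gave at least 3.84 per degree of freedom in every replicate pair, so no libraries agreed within sampling noise. The iTreg library Ezh2KO.165 and the iTreg Ezh2fl/fl library 177 stood apart from the rest, at -109 and -98.2 on the first principal component, against -44.9 to 1.87 for the other iTreg libraries. The Th0 and iTreg libraries numbered Ezh2KO.165 also differed from the rest in Xist, with 27248 and 25036 reads against 2 to 21 in the other RNA libraries. Ezh2 itself had 48.7 to 123 CPM in iTreg Ezh2KO, 166 to 251 in iTreg Ezh2fl/fl, 148 to 169 in Th0 Ezh2KO and 295 to 312 in Th0 Ezh2fl/fl. CPM are reads per 1000000 counted reads of the library. Its log2 fold change was -1.18 in iTreg (edgeR adjusted p = 0.0235) and -0.99 in Th0 (adjusted p = 0.0618). The labels do not say which exons were floxed, so reads over the whole gene check the deletion only in part. Foxp3, the factor that defines regulatory T cells, had 79.5 ± 13.1 CPM in iTreg Ezh2KO and 913 ± 64.7 CPM in iTreg Ezh2fl/fl libraries (SD, n = 3 each), so the label iTreg names the culture.

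In iTreg cultures without Ezh2 the IL-12 receptor chains and Stat4 were higher, while Il18r1 and Ifngr2 were lower. Of the 8 members 3 rose and 2 fell, where "rose", "fell" and "called" mean a Benjamini-Hochberg adjusted p under 0.05 over all 12845 genes tested with edgeR's quasi-likelihood test. Of all genes 9.45% rose and 7.26% fell in this comparison. The libraries of the groups did not overlap for 5 of the 8 members, nor for 25.5% of all genes. The median log2 fold change of the members was 0.47, against 0.01 over all genes.

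Il12rb2 showed the widest separation. In iTreg Ezh2KO libraries it had 617, 623 and 142 CPM, against 23.5, 14.1 and 6.85 CPM in iTreg Ezh2fl/fl libraries. The groups did not overlap, and library Ezh2KO.165 was the lowest of its group and 177 the lowest of the controls. The log2 fold change was 4.96 (95% CI 3.57 to 6.35, edgeR adjusted p = 0.000616), a 31.2-fold difference. It passed in all 17 alternative analyses, with log2 fold changes of 4.61 to 5.46. The fold was 20.7 between the libraries that stood apart, Ezh2KO.165 and 177, which the labels do not pair. It was 33.0 between the means of Ezh2KO.150 and Ezh2KO.153 and of Ezh2fl/fl 154 and 155. In bulk RNA, fewer cells carrying a transcript and less of it per cell cannot be told apart.

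Il12rb1, the partner chain, followed with a smaller difference. It had 152.97, 168 and 42.9 CPM in iTreg Ezh2KO libraries, against 30.7, 21.6 and 10.4 CPM in iTreg Ezh2fl/fl libraries. Again the groups did not overlap, and the libraries that stood apart were the lowest in each group. Its log2 fold change was 2.54 (95% CI 1.44 to 3.65, edgeR adjusted p = 0.00626), or 5.83-fold. Fitted on the 6 iTreg libraries alone, the difference was 2.55 with an adjusted p of 0.104.

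Stat4 rose as well, although its libraries lay close to each other between the groups. iTreg Ezh2KO libraries had 108, 102 and 276 CPM, against 48.8, 43.4 and 87.4 CPM in Ezh2fl/fl libraries. The lowest Ezh2KO value exceeded the highest control value, and Ezh2KO.165 and 177 were the highest of their groups. The log2 fold change was 1.44 (95% CI 0.57 to 2.31, edgeR adjusted p = 0.0309). The call was lost without iTreg Ezh2fl/fl 154 (log2 fold change 1.31, adjusted p = 0.108), without iTreg Ezh2fl/fl 155 (1.25, adjusted p = 0.119) and with the 6 iTreg libraries alone (1.45, adjusted p = 0.22). Without Ezh2KO.165 the log2 fold change shrank to 0.81 (adjusted p = 0.0268). That fit called 44.2% of all genes, against 16.7% with all libraries.

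Il18r1, the chain that binds IL-18, fell. It had 175.02, 196 and 151 CPM in iTreg Ezh2KO libraries, against 535, 569.8 and 645 CPM in iTreg Ezh2fl/fl libraries. Every control library lay above every Ezh2KO library, and Ezh2KO.165 and 177 were at opposite ends of the 6. Its log2 fold change was -1.74 (95% CI -2.33 to -1.15, edgeR adjusted p = 0.00164); the level in iTreg Ezh2fl/fl was 3.34-fold higher. This call passed in all 17 alternatives. The accessory chain Il18rap did not follow: it had 15.3, 17.3 and 2.33 CPM in the Ezh2KO libraries and 15.04, 10.4 and 4.39 CPM in the Ezh2fl/fl libraries, and the groups overlapped. Its log2 fold change of 0.23 (95% CI -1.15 to 1.61, adjusted p = 0.876) spans both directions, and it turned to -0.01, -0.17 and -0.13 without Ezh2KO.150, Ezh2KO.153 or Ezh2fl/fl 177.

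Ifngr2, the signalling chain of the interferon gamma receptor, also fell. It had 16.8, 16.9 and 29.0 CPM in iTreg Ezh2KO libraries, against 43.0, 43.9 and 53.9 CPM in iTreg Ezh2fl/fl libraries. The ranges were separate, and Ezh2KO.165 and 177 were again the highest of their groups. The log2 fold change was -1.16 (95% CI -1.63 to -0.69, edgeR adjusted p = 0.00436), and -1.16 with an adjusted p of 0.0817 in the 6 iTreg libraries alone. The binding chain Ifngr1 had 276, 286 and 676 CPM in the Ezh2KO libraries and 241, 196 and 329 CPM in the Ezh2fl/fl libraries, a log2 fold change of 0.70 (adjusted p = 0.197). Il27ra had 76.5, 80.1 and 147 CPM in the Ezh2KO libraries and 104, 102 and 113 CPM in the Ezh2fl/fl libraries (log2 fold change -0.07, adjusted p = 0.899). Both depended on the libraries that stood apart. Without Ezh2KO.165 and 177 the log2 fold change was 0.36 for Ifngr1 (adjusted p = 0.0233) and -0.40 for Il27ra (adjusted p = 4.19e-05), in a fit that called 57.1% of all genes.

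**Figure D1:**
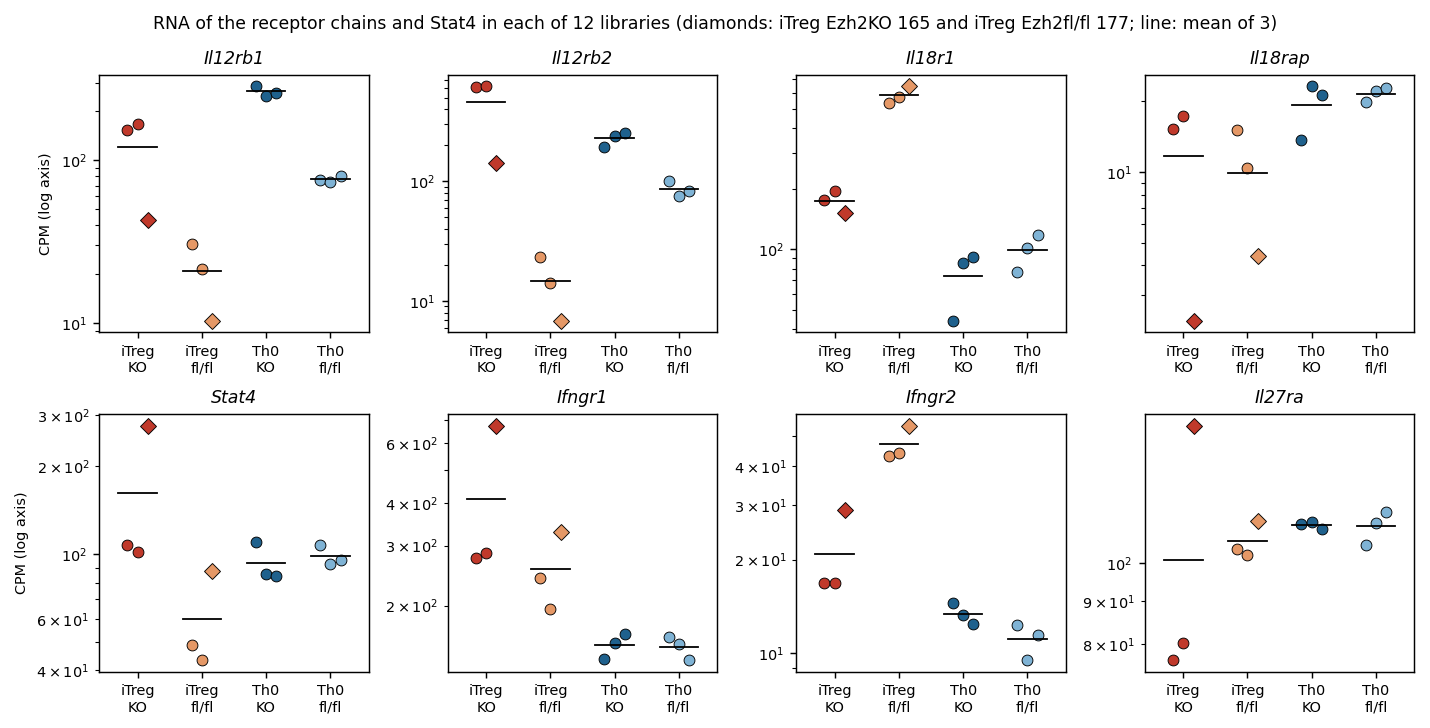
CPM of each member in every RNA library on log axes, with the iTreg groups left of the Th0 groups and Ezh2KO left of Ezh2fl/fl; points are libraries, lines are means of 3, and diamonds mark iTreg Ezh2KO.165 and iTreg Ezh2fl/fl 177. Il12rb2 reached 617 and 623 CPM in the iTreg libraries Ezh2KO.150 and Ezh2KO.153 and at most 23.5 CPM in iTreg Ezh2fl/fl, while Il18r1 was highest in iTreg Ezh2fl/fl, at 535 to 645 CPM.

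In Th0 cells without Ezh2, Il12rb1 was the only member called, and the other members differed less or within their spread. It had 285, 249 and 261 CPM in Th0 Ezh2KO libraries, against 75.6, 73.1 and 80.2 CPM in Th0 Ezh2fl/fl libraries. Its log2 fold change was 1.76 (95% CI 0.69 to 2.83, edgeR adjusted p = 0.0407). Of all genes 8.74% rose and 3.22% fell in this comparison. The call was lost in 8 of 17 alternatives at unchanged size: without any of the 6 Th0 libraries the log2 fold change was 1.71 to 1.81 with adjusted p of 0.0928 to 0.137, and without iTreg Ezh2KO.150 or iTreg Ezh2fl/fl 155 it was 1.76 with adjusted p of 0.0531 and 0.0634. Without both iTreg libraries that stood apart, the adjusted p was 2.0e-06. That fit called 51.6% of all genes, against 12% with all libraries. All 4 groups share 1 estimate of spread in these tests.

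Il12rb2 was higher in the same Th0 libraries without passing the test. It had 192, 241 and 252 CPM in Ezh2KO libraries, against 100.5, 75.9 and 82.4 CPM in Ezh2fl/fl libraries. The groups did not overlap, which held for 3 of the 8 members (Il12rb1, Il12rb2 and Ifngr2) and for 59.2% of all genes. The log2 fold change was 1.37 (95% CI 0.18 to 2.57, edgeR adjusted p = 0.148). It passed with the 6 Th0 libraries alone (adjusted p = 0.00116) and without iTreg Ezh2KO.165 (adjusted p = 0.0132). Those fits called 52.1% and 27.1% of all genes, against 12% with all libraries. Ifngr2 had 14.48, 13.26 and 12.446 CPM in Th0 Ezh2KO and 12.363, 9.53 and 11.4 CPM in Th0 Ezh2fl/fl libraries (log2 fold change 0.24, adjusted p = 0.617). The other 5 members overlapped between the genotypes in Th0, with log2 fold changes of -0.46 for Il18r1 (adjusted p = 0.348), -0.19 for Il18rap, -0.12 for Stat4, -0.03 for Il27ra and -0.02 for Ifngr1. Their 95% intervals still allow differences, for example -0.97 to 0.74 for Stat4 and -0.50 to 0.44 for Il27ra. The median over the 8 members was -0.02 in Th0, against -0.0017 over all genes.

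**Figure D2:**
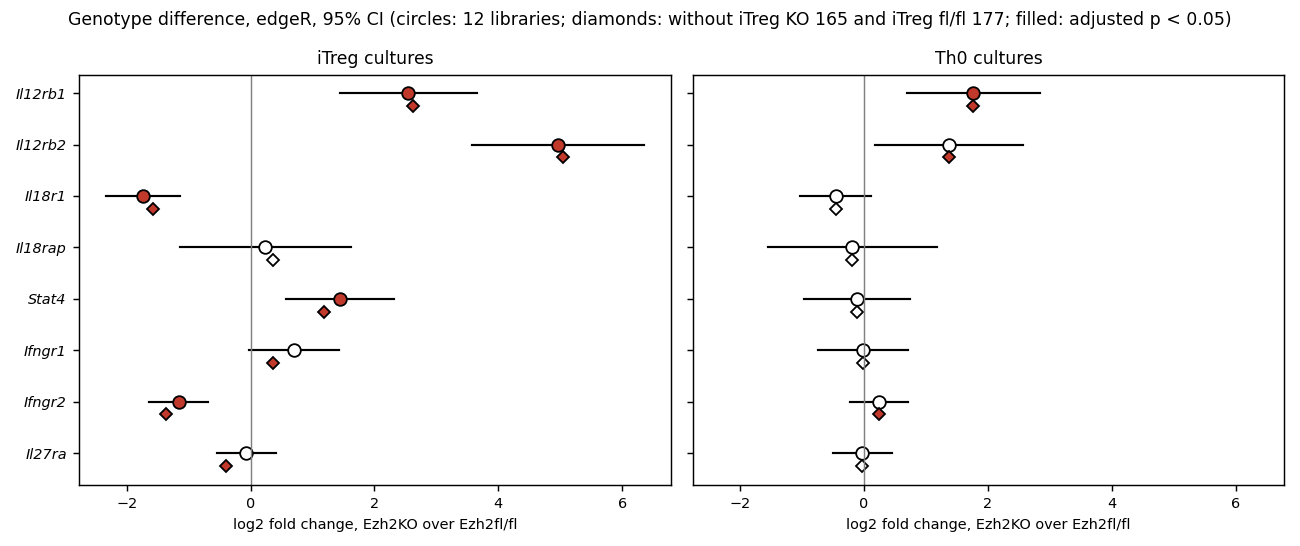
Log2 fold change of Ezh2KO over Ezh2fl/fl for each member in iTreg (left) and Th0 cultures (right), with 95% confidence intervals from edgeR; filled symbols passed an adjusted p of 0.05. Circles use all 12 libraries and diamonds leave out iTreg Ezh2KO.165 and iTreg Ezh2fl/fl 177. Il12rb2 in iTreg lay at 4.96 with all libraries and at 5.04 without those.

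The difference between the genotypes was itself different in iTreg and Th0 for 2 members. The interaction, which is the log2 fold change in iTreg minus that in Th0, was 3.59 for Il12rb2 (95% CI 1.87 to 5.31, edgeR adjusted p = 0.0296) and -1.40 for Ifngr2 (95% CI -2.07 to -0.73, adjusted p = 0.0289). Of all genes 1.63% had a higher and 2.86% a lower interaction by this test. Il12rb2 lost the call without any 1 of 9 libraries (iTreg Ezh2KO.150 or Ezh2KO.153, iTreg Ezh2fl/fl 155 and each Th0 library), with log2 values of 3.31 to 3.67 and adjusted p of 0.0655 to 0.0879. Ifngr2 lost it without any 1 of the same 9 or iTreg Ezh2fl/fl 177, with log2 values of -1.49 to -1.27 and adjusted p of 0.0508 to 0.0825. Without both libraries that stood apart, 5 members were called, in a fit that called 41.2% of all genes. Il18r1 had an interaction of -1.28 (adjusted p = 0.0908, but 0.017 with DESeq2 and 0.018 without Th0 Ezh2KO.165), Stat4 of 1.56 (adjusted p = 0.172) and Il12rb1 of 0.78 (adjusted p = 0.729), so with all libraries these responses were not shown to differ between iTreg and Th0. Without both libraries that stood apart, Stat4 (1.30, adjusted p = 0.000265) and Il12rb1 (0.85, adjusted p = 0.00485) passed.

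In control cells these genes differed between the cultures in both directions. In iTreg relative to Th0 Ezh2fl/fl cells, Il12rb2 fell (log2 fold change -2.61, edgeR adjusted p = 0.00846) and so did Il12rb1 (-1.94, adjusted p = 0.0158). Il18r1 rose by 2.49 (adjusted p = 0.000297) and Ifngr2 by 2.01 (adjusted p = 0.000279). These calls, 2 higher and 2 lower among 8 members, stand beside 19.9% of all genes higher and 11.5% lower. In Ezh2KO cells 2 members rose and none fell, beside 16.6% of all genes higher and 8.75% lower. Il18r1 rose by 1.21 (adjusted p = 0.0126) and Ifngr1 by 1.399 (adjusted p = 0.017), whereas Il12rb1 (-1.15, adjusted p = 0.0909), Il12rb2 (0.98, adjusted p = 0.173) and Ifngr2 (0.61, adjusted p = 0.0576) did not pass. Ifngr1 lost that call without Th0 Ezh2KO.165 (1.32, adjusted p = 0.0688), Ezh2KO.174 (1.399, adjusted p = 0.06) or Ezh2KO.175 (1.45, adjusted p = 0.0548). Without iTreg Ezh2KO.165 it was 0.84 (adjusted p = 0.00824), in a fit that called 28.8% of all genes, against 25.4% with all libraries. With the 6 Ezh2KO libraries alone neither Il18r1 (adjusted p = 0.0843) nor Ifngr1 (adjusted p = 0.101) passed. The genotype and culture comparisons share their libraries, so their values are set side by side and not correlated.

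The order of the 4 groups by level differed between members. Il18r1 averaged 174.02 ± 22.1 CPM in iTreg Ezh2KO and 583 ± 56.3 CPM in iTreg Ezh2fl/fl (SD, n = 3 each), both above the Th0 groups, which overlapped (73.5 ± 25.6 in Ezh2KO and 98.9 ± 20.9 in Ezh2fl/fl). Il12rb2 ran the other way, with iTreg Ezh2KO (461 ± 276) and Th0 Ezh2KO (228 ± 31.5) overlapping at the top, then Th0 Ezh2fl/fl (86.2 ± 12.7) and iTreg Ezh2fl/fl (14.8 ± 8.35) below them without overlap. Il12rb1 was highest in Th0 Ezh2KO (265 ± 18.6), and iTreg Ezh2KO (121 ± 68.4) overlapped Th0 Ezh2fl/fl (76.3 ± 3.597). Ifngr2 averaged 20.9 ± 7.00 CPM in iTreg Ezh2KO and 46.9 ± 6.05 in iTreg Ezh2fl/fl, above both Th0 groups, and no neighbours in its order overlapped. Il27ra stayed between 101 and 111 CPM on average in all 4 groups, and every neighbouring pair overlapped.

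Per length of transcript the chains of a receptor could be compared with each other. RPKM are CPM per kilobase of the gene length given in the files. In iTreg Ezh2KO cells Ifngr1 (196.5 ± 109 RPKM) and Il12rb2 (156 ± 93.7) were the highest members, whereas in iTreg Ezh2fl/fl cells they were Ifngr1 (122 ± 32.4) and Il18r1 (74.1 ± 7.15), and Il12rb2 (5.03 ± 2.83) was the second lowest. The ratio of Il12rb2 to Il12rb1 RPKM within a library was 3.93, 3.61 and 3.22 in iTreg Ezh2KO libraries, against 0.746, 0.636 and 0.645 in iTreg Ezh2fl/fl libraries. Libraries Ezh2KO.165 and 177 lay close to their partners in this ratio, although both chains were lowest there. In Th0 cells the ratio averaged 0.847 ± 0.164 in Ezh2KO and 1.102 ± 0.167 in Ezh2fl/fl libraries.

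The other receptors were less even. The ratio of Ifngr2 to Ifngr1 RPKM was 0.0618, 0.0599 and 0.0435 in iTreg Ezh2KO libraries, against 0.181, 0.228 and 0.166 in iTreg Ezh2fl/fl libraries, without overlap, and 0.0896 ± 0.0148 in Th0 Ezh2KO against 0.0745 ± 0.0109 in Th0 Ezh2fl/fl. The ratio of Il18rap to Il18r1 RPKM was 0.278, 0.281 and 0.0487 in iTreg Ezh2KO libraries and averaged 0.0562 ± 0.0338 in iTreg Ezh2fl/fl libraries, and library Ezh2KO.165 lay inside the control range. In Th0 it averaged 0.861 ± 0.121 in Ezh2KO and 0.709 ± 0.107 in Ezh2fl/fl libraries. With 3 libraries against 3, the exact two-sided permutation test cannot go below p = 0.1, and over the 12 ratio comparisons the smallest adjusted p was 0.133, so none could pass.

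**Figure D3:**
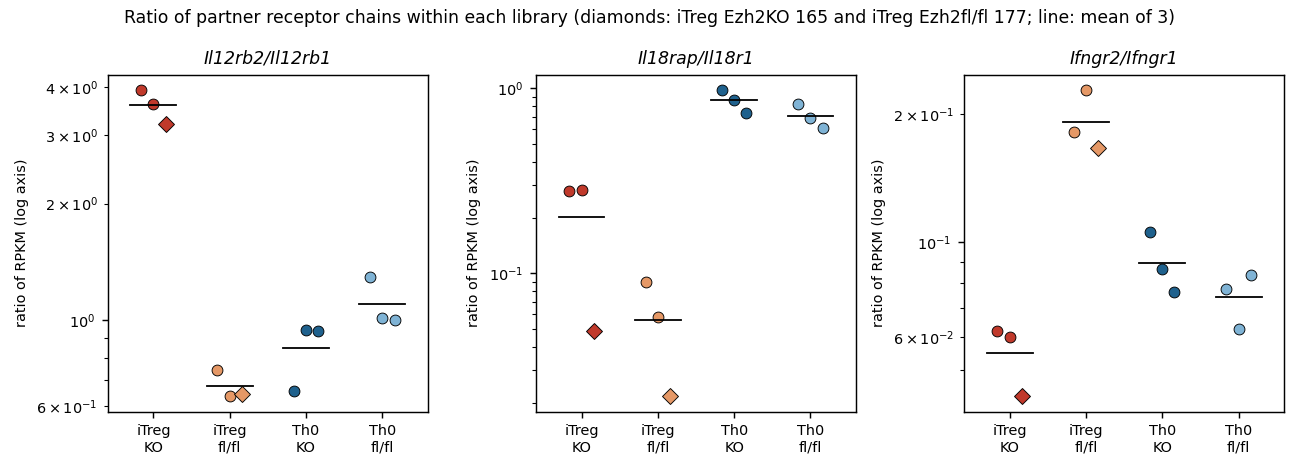
Ratio of the RPKM of partner chains within each RNA library on log axes; points are libraries, lines are means of 3, diamonds mark iTreg Ezh2KO.165 and iTreg Ezh2fl/fl 177. Il12rb2 exceeded Il12rb1 by 3.22 to 3.93 times in iTreg Ezh2KO libraries and lay below it in iTreg Ezh2fl/fl libraries.

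Other genes of these pathways were examined as a list of 38 ligands, kinases, transcription factors, adaptors, feedback regulators and targets, chosen with earlier results of these data known. In iTreg cells 14 of the 32 tested genes rose without Ezh2 and 1 fell, with a median log2 fold change of 0.63 against 0.01 over all genes, of which 9.45% rose and 7.26% fell. They included the interferon gamma targets Irf1 (1.39), Irf8 (1.82), Gbp2 (1.38), Ifi47 (0.97) and Irgm1 (1.499). Not every such target rose: Gbp3 was at 0.04 (edgeR adjusted p = 0.943), and its groups overlapped. The T-box factors Tbx21 (1.53) and Eomes (4.88), which bind Th1 genes, rose together with Hlx (4.75) and Runx3 (0.80). The secreted or surface products Ifng (2.92), Ccl5 (5.85), Cxcr3 (3.97) and Fasl (4.43) rose too. Ccl5 had 80.9 and Cxcr3 243 CPM in Ezh2KO.165, against 5.20 and 5.79 CPM of Ccl5 and 43.5 and 37.5 CPM of Cxcr3 in the other Ezh2KO libraries, and without Ezh2KO.165 their log2 fold changes were 3.37 and 2.55. Traf6, an adaptor of IL-18 signalling, fell by 1.04. All 15 had an edgeR adjusted p of at most 0.0394. In the 6 iTreg libraries alone 4 pathway genes were called, in a fit that called 4.34% of all genes, against 16.7% with all libraries. Ifng had 7.58 CPM in iTreg Ezh2KO.165, 1.03 and 1.07 CPM in the other Ezh2KO libraries and 0.245 to 0.609 CPM in Ezh2fl/fl. Its call was lost in 12 of 17 alternatives, among them every one that left out a Th0 or iTreg Ezh2fl/fl library. Without iTreg Ezh2KO.165 its log2 fold change was 1.31 (adjusted p = 0.0752).

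In Th0 cells 4 of the 32 rose and none fell, with a median log2 fold change of 0.26, beside 8.74% of all genes higher and 3.22% lower. They were Ifng (5.32), Eomes (4.39), Hlx (6.26) and Fasl (3.42), with edgeR adjusted p of at most 0.00389. Hlx and Ifng had few control reads: 2 and 40 over the 3 Th0 Ezh2fl/fl libraries together, against 193 and 1701 in Th0 Ezh2KO. In iTreg Hlx had 7 reads in Ezh2fl/fl and 180 in Ezh2KO. Without both libraries that stood apart, 16 pathway genes were called higher and 8 lower in Th0, and 15 higher and 10 lower in iTreg, in fits that called 51.6% and 57.1% of all genes. The genes of the ligands themselves, Il12a, Il12b, Il18, Il23a and Il27, and of the IL-23 receptor chain Il23r had too few reads to test. Il23r, which lies near Il12rb2 on chromosome 6, had 38 reads in the 3 iTreg Ezh2KO libraries together, against 2 in iTreg Ezh2fl/fl, 2 in Th0 Ezh2KO and 2 in Th0 Ezh2fl/fl.

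Markers of other cell types moved with some of these results, and their part in them was not tested. Counts of called markers stand beside 9.45% of all genes higher and 7.26% lower in iTreg. In Th0 8.74% of all genes were higher and 3.22% lower. The CD4 T cell list (Cd3e, Cd3d, Cd3g, Cd4, Cd5, Thy1, Lck) summed to 3682 to 4284 CPM in iTreg Ezh2KO, 3518 to 3667 in iTreg Ezh2fl/fl, 3292 to 3534 in Th0 Ezh2KO and 3582 to 3728 in Th0 Ezh2fl/fl. Cd3e and Cd3g rose and Cd4 and Cd5 fell in iTreg Ezh2KO (0.45, 0.73, -0.44 and -1.25 on the log2 scale), and Cd4 and Cd5 fell in Th0 Ezh2KO (-0.88 and -1.60). The regulatory T cell list of 4 genes summed to 568 to 1424 CPM in iTreg Ezh2KO against 3392 to 5168 in iTreg Ezh2fl/fl, with 3 of 4 lower, and to 571 to 924 in Th0 Ezh2KO against 2516 to 2679 in Th0 Ezh2fl/fl, with 2 of 4 lower. The B cell list of 8 genes was higher in 8 of 8 in Th0, with sums of 232 to 529 CPM in Ezh2KO against 76.5 to 125 in Ezh2fl/fl, and in iTreg summed to 39.0 to 79.8 CPM in Ezh2KO against 29.5 to 30.6 in Ezh2fl/fl, with 1 of 8 higher and 3 lower. The list of NK, NKT and gamma-delta T cell genes summed to 85.6 to 112 CPM in iTreg Ezh2KO against 22.4 to 32.3 in iTreg Ezh2fl/fl, with 3 of the 5 tested members higher and Ncr1 at 0 in both groups. In Th0 it summed to 14.6 to 18.5 CPM in Ezh2KO against 3.36 to 4.23 in Ezh2fl/fl, with 3 of the 5 tested members higher. The CD8 genes Cd8a and Cd8b1 summed to 39.6 to 138 CPM in iTreg Ezh2KO against 18.01 to 26.7 in iTreg Ezh2fl/fl, with 1 of 2 higher, and to at most 10.01 CPM in either Th0 group. Myeloid genes summed to 2.27 to 11.4 CPM in iTreg Ezh2KO against 3.18 to 26.2 in iTreg Ezh2fl/fl and to 1.44 to 1.51 in Th0 Ezh2KO against 0.382 to 0.408 in Th0 Ezh2fl/fl, with Emr1 at 0 in iTreg Ezh2KO, Csf1r and Cd14 at 0 in iTreg Ezh2fl/fl, Csf1r at 0 in Th0 Ezh2KO, and Lyz2, Cd14 and Mpo at 0 in Th0 Ezh2fl/fl. Dendritic genes summed to 3.70 to 8.34 CPM in iTreg Ezh2KO against 1.05 to 1.49 in iTreg Ezh2fl/fl, with all 3 tested members higher. They summed to 2.46 to 2.82 CPM in Th0 Ezh2KO against 0.741 to 1.18 in Th0 Ezh2fl/fl, with 1 of the 3 higher. Siglech was at 0 in both Ezh2KO groups and Itgax at 0 in Th0 Ezh2fl/fl.

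H3K27me3 density was called higher in Th0 Ezh2KO than in Th0 Ezh2fl/fl cells over Il12rb1, Il27ra and Stat4, 3 of the 8 member genes. Over none was it called lower with scaling to library totals. Of all intervals tested 32.2% were called higher and 20.6% lower. The files count ChIP reads over each whole gene, from start to end in mm10, and density here is reads per 1000000 counted reads and per kilobase of that interval. No member was among the top 10% of intervals by control density, 6 lay below the median of all 20376 intervals tested and 2 above it, at percentiles of 7.31 (Il12rb1) to 66.0 (Il18r1). With no input library used here, density is not corrected for local background.

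Il12rb1 (chromosome 8, 70808449 to 70821424) had the lowest control density of the members. It stood at 1.04 and 0.893 in Ezh2KO libraries 10 and 9, against 0.277 and 0.409 in Ezh2fl/fl libraries 33 and 7. These rest on 203 and 129 reads in Ezh2KO and 40 and 66 reads in Ezh2fl/fl. Its log2 fold change was 1.49 (95% CI 0.87 to 2.102, edgeR adjusted p = 0.00204). Il27ra (chromosome 8, 84030287 to 84042575), which overlaps Palm3, likewise had 1.15 and 1.11 in Ezh2KO against 0.534 and 0.360 in Ezh2fl/fl (log2 fold change 1.34, adjusted p = 0.00292). Stat4 (chromosome 1, 51987148 to 52107188) had 0.944 and 0.939 in Ezh2KO against 0.779 and 0.669 in Ezh2fl/fl (log2 fold change 0.38, adjusted p = 0.0439).

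These 3 rises stand beside 32.2% of all intervals called higher and 20.6% called lower. The median log2 fold change of all intervals was 0.21 and that of the members 0.37. Densities spread less in Ezh2KO libraries, with 25th and 75th percentiles of 0.851 and 1.13, against 0.474 and 1.42 in Ezh2fl/fl libraries. Density is a share of the library's reads, so a higher density does not show more of the mark per cell. With TMM scaling, which moved the median of all intervals to -0.02, the split was 4956 higher and 5699 lower in place of 6570 and 4205. Il12rb1 and Il27ra passed under that scaling too, Stat4 did not (0.15, adjusted p = 0.422), and Il18r1 was called lower (-0.53, adjusted p = 0.0377). Stat4 also lost its call with DESeq2 size factors (0.19, adjusted p = 0.294) and without Ezh2fl/fl library 7 (0.27, adjusted p = 0.128). Without that library Il18r1 was called lower (-0.54, adjusted p = 0.00573) and Il12rb2 higher (0.41, adjusted p = 0.024). Each of the 3 calls was lost without Ezh2KO library 10 or 9, when edgeR called 0 of all intervals (7223 and 7401 had an unadjusted p under 0.05).

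Il12rb2 (chromosome 6, 67291318 to 67376188), the member with the largest RNA difference between the genotypes in iTreg, had 1.05 and 1.04 in Ezh2KO against 0.789 and 0.822 in Ezh2fl/fl (log2 fold change 0.38, edgeR adjusted p = 0.0501, and 0.00903 with DESeq2). Its control density was at the 44.8th percentile. Il18r1 (chromosome 1, 40465552 to 40500854) had 1.02 and 0.926 in Ezh2KO against 1.42 and 0.982 in Ezh2fl/fl (-0.30, adjusted p = 0.272), and the groups overlapped. Il18rap (chromosome 1, 40515362 to 40551705) had 1.17 and 1.23 in Ezh2KO against 1.06 and 1.18 in Ezh2fl/fl (0.10, adjusted p = 0.697). Ifngr1 (chromosome 10, 19591949 to 19610229) and Ifngr2 (chromosome 16, 91547072 to 91565169) differed by 0.35 (adjusted p = 0.253) and 0.33 (adjusted p = 0.269). The mark was measured in Th0 cells, so nothing is known here of these intervals in iTreg cells, where most of the members' RNA differences were found.

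**Figure D4:**
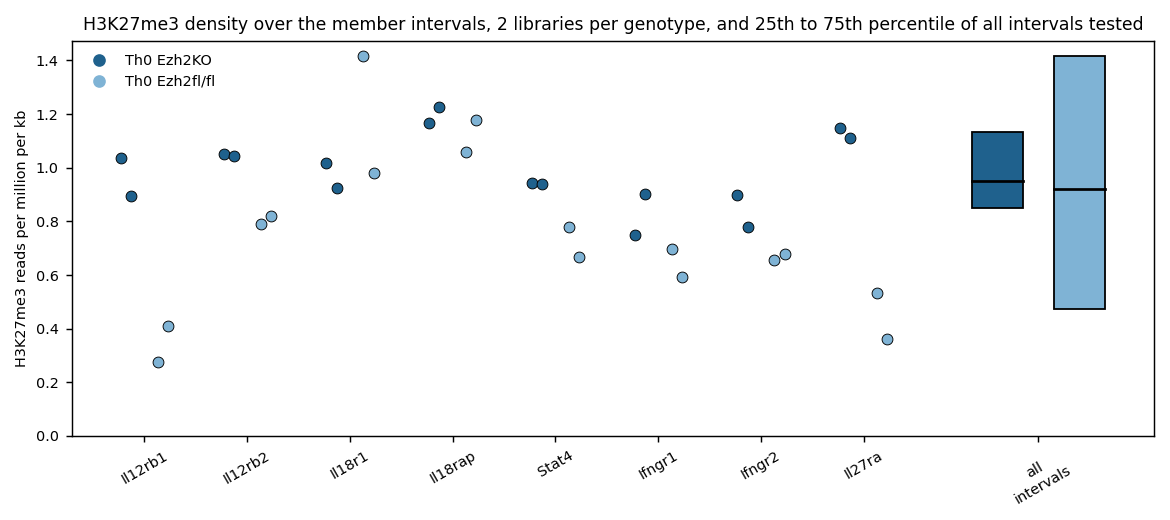
H3K27me3 density (reads per 1000000 counted reads and kilobase) over each member gene in Th0 cells, Ezh2KO left of Ezh2fl/fl; points are libraries, and the boxes at the right span the 25th to 75th percentile of all 20376 intervals, with the median as a line. Il12rb1 and Il27ra show the widest gaps, with Ezh2KO libraries at 0.893 to 1.15 and Ezh2fl/fl libraries at 0.277 to 0.534.

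Among the other pathway genes, Eomes, Hlx, Il12a and Gadd45b lay in the top 10% of intervals by control density and fell. Control density enters this difference, so intervals picked by it tend to be lower in Ezh2KO. The 90th percentile of all intervals was 1.31 in Ezh2KO and 2.20 in Ezh2fl/fl. The share of all intervals of the top 10% that fell was not counted, so these falls are descriptions. Eomes had 0.919 and 0.975 in Ezh2KO against 2.95 and 5.29 in Ezh2fl/fl, at the 97.4th percentile of control density (log2 fold change -2.12, edgeR adjusted p = 0.000407). Hlx, a homeobox factor of Th1 cells, had 1.196 and 1.11 in Ezh2KO against 3.05 and 4.09 in Ezh2fl/fl (-1.63, adjusted p = 0.00084). Gadd45b and Il12a fell by 2.18 and 1.39, and Il12b and Runx3, outside the top 10%, by 0.86 and 0.68 on the log2 scale. The Gadd45b fall rests on 20 and 18 reads in Ezh2KO libraries 10 and 9. Ezh2fl/fl libraries 33 and 7 had 38 and 122 reads there, at unlike densities of 1.62 and 4.64. Thus 6 of the 36 tested pathway intervals were lower and 15 higher, beside 20.6% and 32.2% of all intervals. Eomes and Hlx RNA rose in Ezh2KO cells of both cultures. Gadd45b RNA was called in neither (log2 fold change 0.30 in iTreg, adjusted p = 0.679, and 0.50 in Th0, adjusted p = 0.502), and Il12a had too few RNA reads to test. Tbx21, at the 25.1st percentile of control density, had 0.924 and 0.989 in Ezh2KO against 0.526 and 0.424 in Ezh2fl/fl (log2 fold change 1.01, adjusted p = 0.00673).

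Il18r1 and Il18rap sit in a row of IL-1 receptor family genes on chromosome 1, between Il1rl1 and the sodium-proton exchanger gene Slc9a4. The members of this row did not move together in RNA. Il1rl2, the IL-36 receptor, rose in iTreg without Ezh2, with 1.56 ± 0.595 CPM in Ezh2KO and 0.565 ± 0.158 CPM in Ezh2fl/fl libraries (log2 fold change 1.47, edgeR adjusted p = 0.0217), while Il18r1 fell. The call of Il1rl2 was lost with the 6 iTreg libraries alone (adjusted p = 0.134) and without iTreg Ezh2KO.150 (1.17, adjusted p = 0.0814), Ezh2KO.153 (1.45, adjusted p = 0.0532), Ezh2fl/fl 155 (1.28, adjusted p = 0.0913) or Ezh2fl/fl 177 (1.46, adjusted p = 0.0551). Il1r2, Il1r1 and Slc9a4 had 50 reads or fewer each over the 12 libraries. The mark was called lower at Slc9a4 (1.103 and 1.01 in Ezh2KO against 2.05 and 2.16 in Ezh2fl/fl, log2 fold change -0.995, adjusted p = 0.00061), Il1r1 (-0.56) and Slc9a2 (-0.54), on both sides of the IL-18 receptor genes; differences between intervals were not tested.

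**Figure D5:**
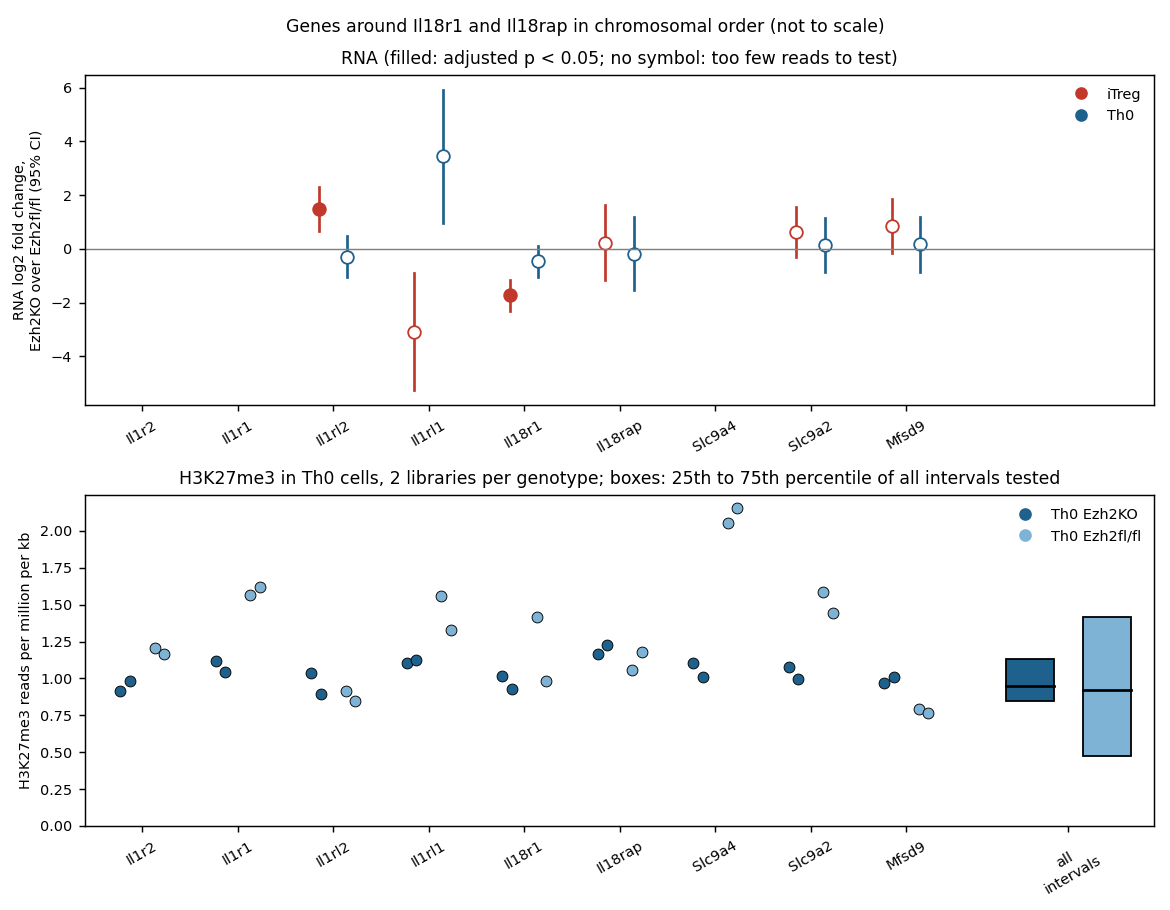
Genes around Il18r1 and Il18rap in chromosomal order, with the log2 fold change of RNA (above; 95% confidence intervals, iTreg left of Th0, filled where the adjusted p was under 0.05) and H3K27me3 density in Th0 cells (below; Ezh2KO left of Ezh2fl/fl, points are libraries, boxes span the 25th to 75th percentile of all intervals tested). Il18r1 RNA lay at -1.74 in iTreg, and Slc9a4 had the highest control density of the row, 2.05 and 2.16.

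The genes most like each member across the 12 RNA libraries were found by the root mean square difference of log2 CPM after centring each gene, over 12837 other genes. Il12rb1 was closest to Mlkl (difference 0.26) and Cst7 (0.28), and Il12rb2 to Lacc1 (0.48) and Serpina3f (0.51), each against a spread (SD) of 1.55 and 2.04 in the member itself. Ifngr2 was closest to Kdm6b (0.13), which encodes a demethylase of H3K27, and to Mmp11 (0.20), with a spread of 0.84. Kdm6b had 35.1 CPM in iTreg Ezh2KO, 78.3 in iTreg Ezh2fl/fl, 22.04 in Th0 Ezh2KO and 20.2 in Th0 Ezh2fl/fl on average. Il18r1 was closest to Rarg (0.32), a retinoic acid receptor, and 9430076C15Rik (0.35). Stat4 was closest to Cdyl2 (0.21) and Mitf (0.22), Ifngr1 to Pde7a (0.12) and Dgat1 (0.14), Il18rap to Pkm (0.21) and Snrpd1 (0.21), and Il27ra to Arl2bp (0.07) and Ext2 (0.07). These points share libraries, so the likeness is a description.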

How the data were processed

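Tools named in the submitters' processing notes are Trimmomatic 0.30, TopHat2 2.0.6, Bowtie2 2.1.0 and featureCounts 1.4.2, with the mm10 build. The ChIP headers name featureCounts with whole-gene intervals. The deposited values are raw read counts, per gene for RNA and per interval for ChIP, and the deposited gene lengths gave RPKM. RNA counts were fitted in edgeR 4.0.16 (R 4.3.3) by the robust quasi-likelihood F test, two-sided, with TMM scaling and genes kept by filterByExpr (count setting 10). All 12 libraries entered 1 fit of 4 groups. ChIP counts were fitted likewise but scaled to library totals, since a broad change in the mark would distort scaling by most intervals. Library totals do not measure a broad change either, because density is then a share of the library's reads. CPM and densities used library totals. DESeq2 1.42.0, other scalings, no filter, fits of 6 libraries and left-out libraries were the alternatives. All 8 members passed the filter in both assays.

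The members, gene lists, tests and alternatives were chosen with earlier results of these data known, and alternative counts for the pathway list were added after seeing the data. Named genes were the 8 members, Ezh2, positional neighbours, called pathway genes and the 2 genes closest in profile to each member. Tbx21 in the ChIP comparison, Gbp3, Il23r, Foxp3, Xist and the CD4 T cell markers given singly were named after their values were seen. One pathway gene is counted in the list but not reported here by name. Nothing in the labels says whether replicates were separate mice, so p-values measure only the spread between these libraries, which may be technical.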

Additional observations from a re-analysis of the deposited data

Results flagged for a closer look

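Among the members, neighbours and pathway genes, 5 had a difference between the genotypes that itself differed between iTreg and Th0 by the edgeR interaction test (adjusted p under 0.05 over 12845 genes). Il12rb2 had an interaction of 3.59 on the log2 scale: the difference between Ezh2KO and Ezh2fl/fl was 4.96 in iTreg and 1.37 in Th0. Ifngr2 had -1.40, from -1.16 in iTreg and 0.24 in Th0. The interferon gamma targets Gbp2 and Ifi47 had 1.399 and 1.098 (adjusted p = 0.0344 and 0.00527). The call of Gbp2 was lost without any 1 of 10 libraries (each but iTreg Ezh2KO.165 and iTreg Ezh2fl/fl 177), with log2 values of 1.21 to 1.48 and adjusted p of 0.0554 to 0.0887. Il1rl1, which encodes the IL-33 receptor and lies next to Il18r1, had -6.52 (adjusted p = 0.0371).

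Il1rl1 was a gene of few reads. It had 0.496, 0.472 and 0.137 CPM in iTreg Ezh2KO libraries, against 0.724, 0.693 and 8.18 CPM in iTreg Ezh2fl/fl libraries. In Th0 it had 0.927, 1.78 and 1.27 CPM in Ezh2KO and 0.0407, 0.111 and 0.191 CPM in Ezh2fl/fl libraries. Library 177 holds most of the iTreg control reads, and without it the interaction was -4.36 (adjusted p = 0.0159). The call was lost without any 1 Th0 library and without either of the iTreg libraries Ezh2KO.150 and Ezh2KO.153, with adjusted p of 0.0711 to 0.114.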

How the results depend on the processing

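In iTreg, 5 of 8 members were called, with 4 to 6 when any library was left out, 2 with the 6 iTreg libraries alone and 7 without both libraries that stood apart. In Th0, 1 was called, with 0 to 2 when any library was left out. The count was 2 with the 6 Th0 libraries alone and 3 without both libraries that stood apart. In iTreg 16.7% of all genes were called, 10.5% to 44.2% with a library left out, 4.34% with 6 libraries and 57.1% without both. In Th0 the shares were 12%, 6.08% to 27.1%, 52.1% and 51.6% in the same order. For iTreg against Th0 in Ezh2KO cells the 2 calls became 1 to 4 with any library left out. They became 4 with DESeq2, 0 with 6 libraries and 6 without both. Of all genes 25.4% were called with all libraries, then 8.47% to 32.9%, 38.6%, 4.78% and 57.6% in the same order. In Ezh2fl/fl cells the 4 calls became 4 to 7 with any library left out, 7 with 6 libraries and 8 without both. Of all genes 31.4% were called with all libraries, then 15.3% to 62.9%, 53.4% and 66.8% in the same order. The 2 interaction calls became 0 to 3 with any library left out and 5 without both. Of all genes 4.49% had an interaction called, 2.06% to 19.6% with any library left out and 41.2% without both. For H3K27me3 the 3 member calls became 0 to 4, and the calls over all intervals (6570 higher and 4205 lower) 0 to 12648 in all, when any library was left out, the lone library being assumed to vary like the others. The cause was not tested.

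Signs turned only for values that were not called with all libraries. With any library left out, Il18rap ranged from -0.34 to 0.0074 in Th0 and from -0.17 to 0.72 in iTreg, Ifngr1 from -0.086 to 0.046 in Th0, and Il27ra from -0.44 to 0.094 in iTreg and from -0.41 to 0.12 in the interaction. For H3K27me3, Il18rap was -0.14 and -0.096, and Il1rl2 -0.10 and -0.061, with TMM and with DESeq2 size factors. Over all genes the genotype calls in iTreg were 1214 higher and 933 lower, 331 and 208 with 6 libraries, and 3731 and 3678 without both libraries that stood apart. In Th0 they were 1123 and 413, 3258 and 3139 with 6 libraries, and 3415 and 3282 without both.

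No paired analysis was possible because the groups compared share at most 1 library number.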
